A study of Mus musculus with 15 samples.

Results

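The mitochondrial ribosomal protein genes of mouse bone marrow-derived macrophages were described here across 5 treatment groups. They were chosen by name, as protein-coding genes whose symbol starts with Mrpl (large subunit) or Mrps (small subunit) followed by a digit and which had at least 10 counts in at least 3 libraries. This gave 78 genes, 49 Mrpl and 29 Mrps, of 25700 genes in the count table. All 78 had at least 10 counts in all 15 libraries, and all entered the tests, which ran over 11883 genes. Bone marrow cells of mice aged 8 to 10 weeks had been cultured with the growth factor M-CSF at 10 ng/ml for 7 days, which turns marrow precursors into macrophages. Every group shares that culture, and the mouse strain, sex and genotype and the time under treatment are not given in the labels. Macrophages were then treated with interleukin 4 (IL-4, 10 ng/ml), described as M2 polarization, or interferon gamma (IFNγ, 10 ng/ml), described as M1 polarization. Others received heme-albumin (hemin complexed with human serum albumin) at 200 or 400 µM, described as a model of macrophages that ingest red blood cells, or were left untreated as controls. The vehicle of heme-albumin, albumin alone, is not among the groups analysed. Each group has 3 libraries of bulk RNA, and no label says whether these come from separate mice or cultures, so the p-values below measure the spread between these libraries.

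Mitochondria carry their own ribosome, which translates the few proteins encoded by mitochondrial DNA, all of them hydrophobic core subunits of the respiratory chain and the ATP synthase. Its protein components are all encoded in the nucleus, made in the cytosol and imported. Some descend from bacterial ribosomal proteins and keep their place on the ribosome, and others were added in the mitochondrial lineage. In macrophages, IL-4 is known to raise oxidative metabolism and fatty acid oxidation, while IFNγ with microbial products lowers mitochondrial respiration. Of the 78 genes, 29 encode large-subunit proteins with a bacterial counterpart and 22 large-subunit proteins specific to mitochondria. A further 16 encode small-subunit proteins with a bacterial counterpart and 10 small-subunit proteins specific to mitochondria. The remaining 1, Mrps36, was named as a ribosomal protein but is known as a component of the 2-oxoglutarate dehydrogenase complex. Mrps18a and Mrps30 carry small-subunit names and belong to the large subunit, and are counted there.

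Library totals ran between 8427352 and 28587416 counts, and single members had between 38 and 1790 counts per library. Levels are given as normalised CPM, the CPM of each library scaled by TMM factors, which lay between 0.886 and 1.12. The treatment checks rose in the groups they stand for. Hmox1, the heme-degrading enzyme, had a log2 fold change of 4.93 at 200 µM and 4.76 at 400 µM heme-albumin against control. Arg1 had 11.4 under IL-4 and Cxcl9 had 8.90 under IFNγ. Arg1 was not particular to IL-4 and also rose under IFNγ, with a log2 fold change of 6.01. Its IFNγ libraries had 140, 83.3 and 35.7 normalised CPM, against 2.30, 0.786 and 0.752 in controls. Cxcl9 had 93.5, 55.4 and 557 in IFNγ libraries 1, 2 and 3. Macrophage markers were high in every library, and each of the 8 was tested. Their summed levels differed between groups, with 33068 to 38758 normalised CPM in controls, 14279 to 20374 under IL-4 and 12863 to 26406 under IFNγ. Heme-albumin had 46716 to 55466 at 200 µM and 41883 to 51993 at 400 µM. Against control, 3 of the 8 were lower under IL-4, and 2 higher and 3 lower under IFNγ. At 200 µM 1 was lower and at 400 µM 2 were lower, with 0 higher at either dose. The summed markers of B cells, of red cell precursors and of mast cells with basophils each stayed under 1 normalised CPM in every library, with Hba-a1 and Alas2 at 0, and those of T and NK cells reached at most 2.07. Summed neutrophil markers ranged from 1.91 to 55.0, stromal and endothelial markers from 5.94 to 26.1, dendritic cell markers from 27.0 to 59.8 in IFNγ and up to 2.57 elsewhere, and megakaryocyte markers from 13.4 in IFNγ to 645 normalised CPM in heme-albumin at 400 µM. Of the 3 megakaryocyte markers, 2 were tested. At each heme-albumin dose, 1 of these 2 was higher and 1 lower than control, and under IFNγ 2 were lower. The part of all these markers, those of macrophages included, in the results below was not tested. In bulk RNA, fewer cells of a type and less RNA per cell cannot be told apart. The IFNγ library 3 and the heme-albumin 400 µM library 2 had the lowest members' shares of all counts, 0.181% and 0.191%, against 0.215% to 0.253% in the other 13 libraries. In them, 48 and 47 of the 78 members had their lowest value of the 3 libraries of the group, as 46 had in control library 3, and counts are also given without these libraries.

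In an F test across the 5 groups, 39 of 78 members (50%) had an adjusted p under 0.05, beside 69.1% of all genes tested. Against the shared controls, 33 of 78 members were called in at least 1 of the 4 treatments, beside 66.6% of all genes tested, and 45 in none. Of these 33, 20 were called in 1 treatment, 10 in 2 and 3 in 3 treatments, and 0 in all 4. Over all genes, 33.9% were called in 1 treatment, 17.5% in 2, 10.6% in 3 and 4.7% in all 4. The changes were small: the standard deviation of the members' log2 fold changes lay between 0.21 in heme-albumin 400 µM and 0.33 in IFNγ against control, beside 0.89 to 1.26 over all genes tested. At most 1 of the 78 members changed by 2-fold or more in any treatment against control, beside 12.5% to 19.9% of all genes. The 95% confidence interval of the fold change lay wholly within 1.5-fold of no change for 63 members at 400 µM and 57 members at 200 µM heme-albumin. It did so for 51 members under IL-4 and 57 under IFNγ. Between replicates, the median within-group standard deviation was 0.140 log2 units over the members, beside 0.209 over all genes tested.

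**Figure D1:**
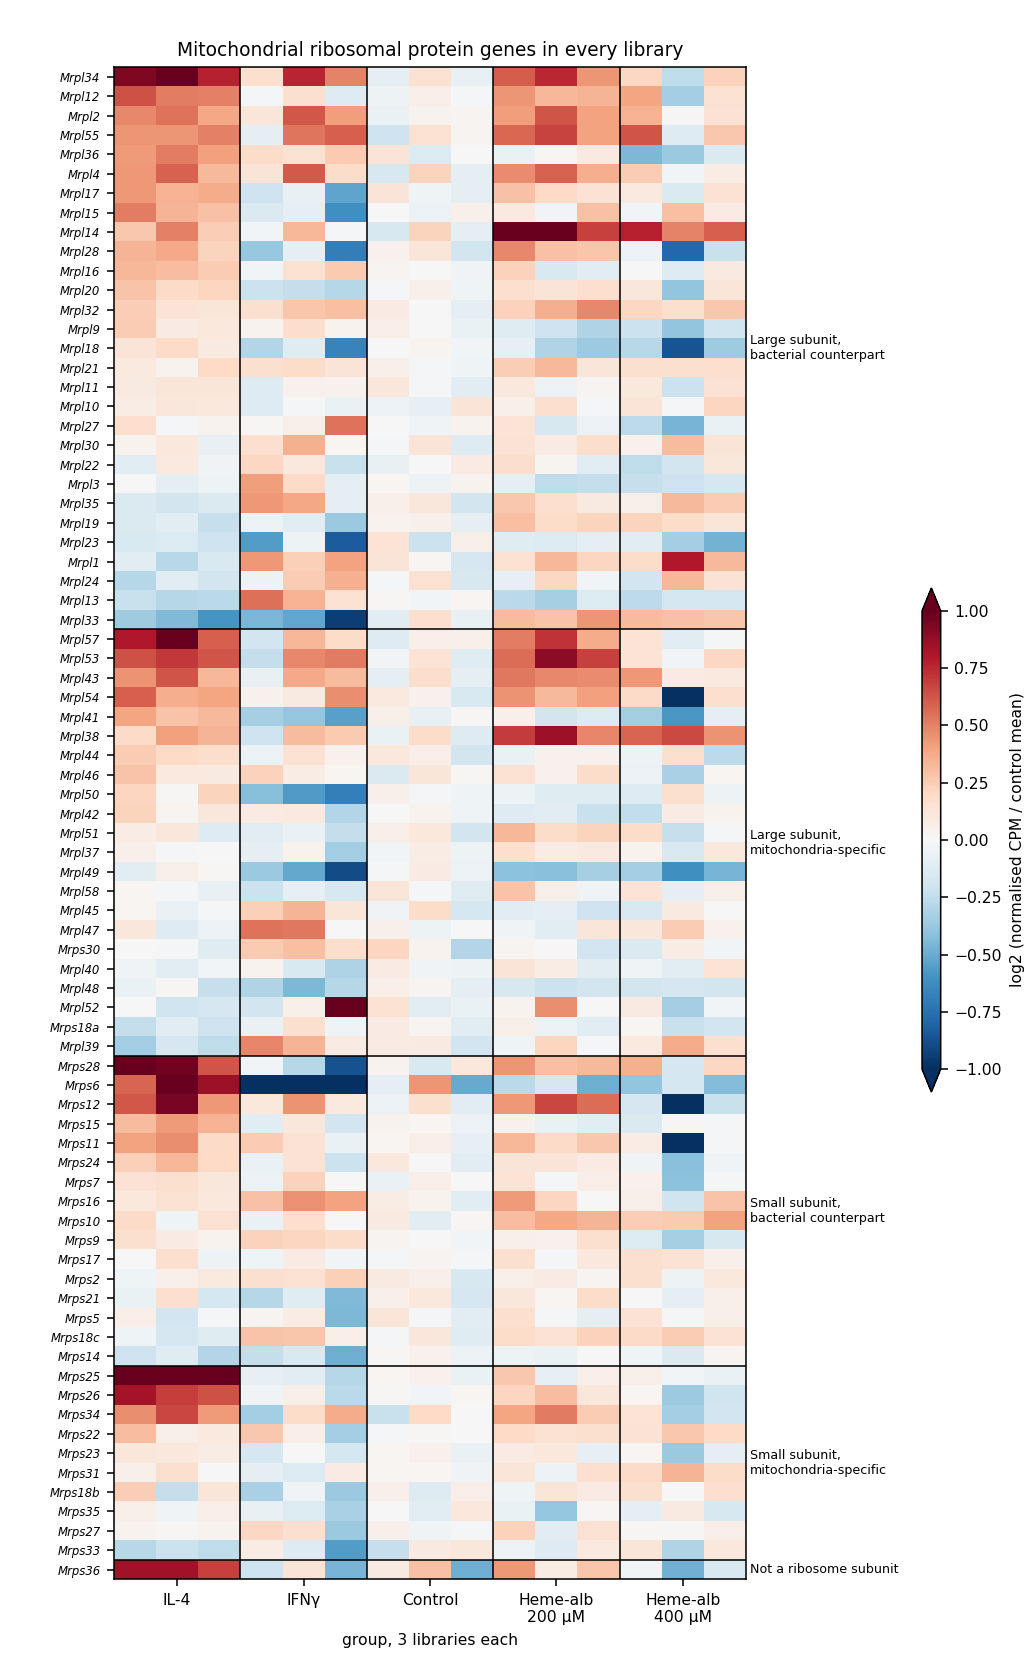
Level of each of the 78 genes (rows, grouped by subunit and by whether a bacterial counterpart exists) in each of 15 libraries (columns, 3 per group), as the log2 ratio of its normalised CPM to the mean of the 3 control libraries; the colour scale ends at 1 unit either way. Most cells are pale, Mrps25 is dark red in the 3 IL-4 libraries, Mrps6 dark blue in the 3 IFNγ libraries, and Mrpl14 red in the heme-albumin libraries.

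Added over the 78 genes, the members came to 2422 ± 62.2 normalised CPM under IL-4 and 2174 ± 135 under IFNγ. They came to 2178 ± 92.2 at 400 µM heme-albumin and 2368 ± 55.3 at 200 µM, against 2169 ± 90.5 in controls (SD, n = 3 each). The IL-4 sums lay between 2350 and 2460 and the 200 µM sums between 2311 and 2422, both above all 3 control sums (2070 to 2247). The IFNγ and the 400 µM sums overlapped those of the controls. This order depends on the scaling: as plain CPM of the library total, the control mean was 2393, the 200 µM mean 2263, the 400 µM mean 2099, the IFNγ mean 2111 and the IL-4 mean 2469. On that scale the 200 µM mean is below the control mean and not above it. The IL-4 sums, 2367 to 2527 on that scale, overlap the control sums of 2286 to 2457. The 49 genes with Mrpl symbols carried most of the total, 1625 of 2422 normalised CPM under IL-4 and 1479 of 2169 in controls.

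**Figure D2:**
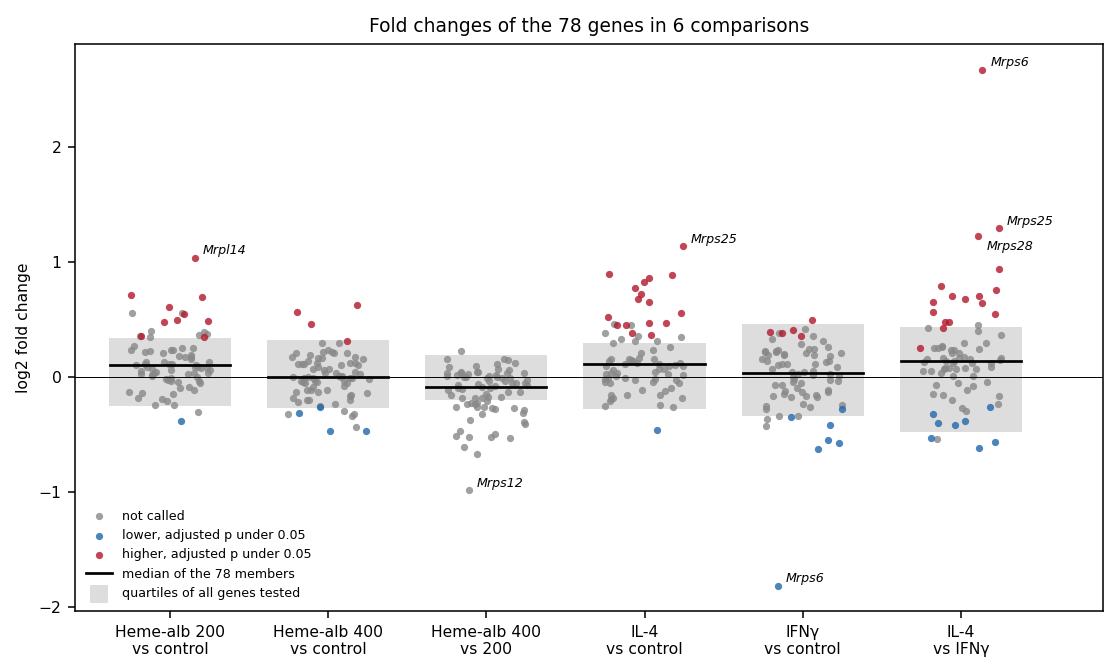
Fitted log2 fold change of the 78 genes in 6 comparisons (1 point per gene; red and blue points passed an adjusted p of 0.05), with the members' median as a line and the quartiles of the 11883 genes tested as a grey box. Members reach 2.67 (Mrps6, IL-4 against IFNγ) and -1.81 (Mrps6, IFNγ against control), and no point is coloured in heme-albumin 400 against 200 µM.

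Promoters were searched for short motifs of factors known to act at nuclear genes for mitochondrial proteins. RefSeq windows of 300 bases (250 before to 50 after the annotated start, GRCm38.p6) were matched for 69 of the 78 members and 9266 protein-coding genes tested. Both strands were searched for the NRF1 core CGCATGCG, the ETS motif CCGGAAGT bound by GABPA, the YY1 motif AAGATGGC, the E-box CACGTG and the antioxidant response element TGACNNNGC. The YY1 letters stood in 12 member promoters (17.4%, beside 5.02% of the tested genes), the ETS letters in 11 (15.9%, beside 9.01%) and the NRF1 letters in 7 (10.1%, beside 4.19%). The E-box stood in 5 (7.25%, beside 10.4%) and the antioxidant response element in 14 (20.3%, beside 15.04%). The 50 hits did not overlap a hit of another motif, and 41 of the 69 promoters held at least 1. The promoters below belong to members that carry results described later: Mrps25 and Mrps26 (highest under IL-4), Mrps6 (whose window also holds the start of another gene) and Mrpl32 (which starts beside a proteasome gene). Each is printed 5′ to 3′ on the gene's strand, with motif letters in capitals.
Mrps25 (chr6:92183974-92184273, minus strand): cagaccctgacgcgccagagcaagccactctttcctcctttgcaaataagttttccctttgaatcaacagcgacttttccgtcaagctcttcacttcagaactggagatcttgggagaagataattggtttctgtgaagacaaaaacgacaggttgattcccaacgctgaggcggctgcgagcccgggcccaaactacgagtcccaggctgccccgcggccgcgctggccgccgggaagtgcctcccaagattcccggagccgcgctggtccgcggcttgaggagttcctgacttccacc
Mrps26 (chr2:130563507-130563806, plus strand): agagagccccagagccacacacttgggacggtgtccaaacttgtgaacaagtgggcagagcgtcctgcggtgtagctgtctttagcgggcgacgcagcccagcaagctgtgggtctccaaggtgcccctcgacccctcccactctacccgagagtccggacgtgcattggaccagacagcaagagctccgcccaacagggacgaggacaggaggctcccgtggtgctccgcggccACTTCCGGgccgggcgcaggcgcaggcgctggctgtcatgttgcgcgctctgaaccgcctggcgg
Mrps6 (chr16:92058086-92058385, plus strand): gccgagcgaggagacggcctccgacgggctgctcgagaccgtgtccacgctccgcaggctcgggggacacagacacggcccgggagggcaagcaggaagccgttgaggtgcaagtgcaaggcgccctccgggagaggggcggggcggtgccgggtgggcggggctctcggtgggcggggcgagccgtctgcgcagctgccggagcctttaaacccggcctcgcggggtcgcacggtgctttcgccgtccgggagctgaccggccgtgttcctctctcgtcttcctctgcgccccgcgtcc
Mrpl32 (chr13:14612988-14613287, minus strand): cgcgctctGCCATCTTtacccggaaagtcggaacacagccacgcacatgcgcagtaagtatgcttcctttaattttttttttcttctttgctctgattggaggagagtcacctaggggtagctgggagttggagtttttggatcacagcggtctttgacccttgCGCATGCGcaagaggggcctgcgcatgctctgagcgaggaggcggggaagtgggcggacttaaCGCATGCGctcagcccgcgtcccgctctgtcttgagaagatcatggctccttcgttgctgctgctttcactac
The Mrps26 window holds 1 ETS match, on the opposite strand, close to the start. The Mrpl32 window holds 2 NRF1 matches and, on the opposite strand, 1 YY1 match. None of the 5 letter strings is in the Mrps25 and Mrps6 windows, nor in those of Mrpl14 and Mrpl12. A match here is a description of the letters and says nothing on whether a factor was bound.

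IL-4 gave the largest count of higher members among the 4 treatments. Against control, 17 of 78 (21.8%) were higher, beside 14.9% of all genes tested, and 1 (1.28%) was lower, beside 12% of all genes. The median log2 fold change was 0.11 over the members and -0.00035 over all genes, and 54 members had a positive and 24 a negative fold change. By role, 9 of the 51 large-subunit genes, 7 of the 26 small-subunit genes and Mrps36 rose. The 8 largest rises were those of Mrps25, Mrpl34, Mrps28, Mrps6, Mrpl57, Mrps36, Mrps26 and Mrps12. The other 9, between 0.37 and 0.65 on the log2 scale, were Mrpl53, Mrpl12, Mrps34, Mrpl43, Mrpl2, Mrpl4, Mrpl36, Mrpl17 and Mrps15.

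Mrps25, a mitochondria-specific small-subunit protein, had the smallest p of all members across the 5 groups (adjusted p = 2.4e-07). It stood at 53.0, 53.8 and 51.1 normalised CPM under IL-4, against 24.2, 24.6 and 22.9 in controls. The 3 IL-4 libraries lie far above every other library, of which the highest, in heme-albumin 200 µM, reached 28.8. The log2 fold change against control was 1.14 ± 0.10 (SE), with an adjusted p of 2.79e-06. Mrps26, also specific to mitochondria, had 35.4, 32.0 and 30.9 normalised CPM under IL-4, against 20.0, 19.5 and 20.1 in controls, again without overlap (log2 fold change 0.72 ± 0.12, adjusted p = 0.00044). Mrps28, the counterpart of bacterial S1, had 19.7, 18.9 and 14.9 under IL-4, against 9.91, 8.71 and 10.4 in controls (0.88 ± 0.19, adjusted p = 0.00414). Mrps12, whose bacterial counterpart lies at the decoding centre, had 18.4, 23.1 and 16.1 under IL-4, against 11.4, 13.3 and 11.1 normalised CPM in controls. Its groups do not overlap either (0.68 ± 0.21, adjusted p = 0.0258).

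In the large subunit, Mrpl34, the counterpart of bacterial L34, had 25.6, 26.7 and 22.9 normalised CPM under IL-4, against 12.6, 14.9 and 12.8 in controls (log2 fold change 0.90 ± 0.17, adjusted p = 0.00122). Mrpl57, specific to mitochondria, had 23.1, 27.3 and 20.1 under IL-4, against 12.1, 13.9 and 13.8 in controls (0.83 ± 0.16, adjusted p = 0.00146). All IL-4 libraries were above all controls for both genes. Mrpl12, the L7/L12 stalk protein to which translation factors dock, had 68.1, 62.4 and 62.2 normalised CPM under IL-4, against 42.2, 45.8 and 43.2 in controls (0.55 ± 0.14, adjusted p = 0.0107). Mrps36, of the 2-oxoglutarate dehydrogenase complex, had 13.8, 13.8 and 12.4 under IL-4, against 8.19, 9.44 and 5.48 in controls (0.77 ± 0.20, adjusted p = 0.0114). The 1 member that fell was Mrpl33, the counterpart of bacterial L33. It had 44.1, 41.7 and 37.5 normalised CPM under IL-4, against 52.4, 63.5 and 53.5 in controls (-0.46 ± 0.12, adjusted p = 0.0126).

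Mrps25, Mrps26, Mrps28, Mrpl34 and Mrpl57 kept their IL-4 calls in all 25 alternatives tried. The Mrps12 call was lost without control library 1 or 3 or IL-4 library 1 or 2, the Mrps36 call without control 3 and the Mrpl33 call without control 2, with adjusted p up to 0.117, 0.0508 and 0.0517. The count of 17 rises was 11 without control 1, 8 without control 3 and 10 without IL-4 library 2. The count of 1 fall was 0 without control 2 and 2 without IFNγ library 1 or 3. The count of rises was 26 when only the 6 libraries compared were fitted, and 26 without the IFNγ library 3 and the heme-albumin 400 µM library 2, neither of which is in this comparison. Here and below, the shares of all genes called in the alternatives are not given. A changed count under an alternative therefore cannot be read as particular to the members. The fold changes went with the GC content of the transcript (Spearman correlation 0.36 across the 78 members and 0.29 across 11863 genes, which are not independent replicates), and the part of GC in single calls was tested by removing each library's GC trend. With that trend removed, the fall was called for 3 members instead of 1, the count of rises stayed within 1.5 times, and the members' median was 0.07 instead of 0.11.

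**Figure D3:**
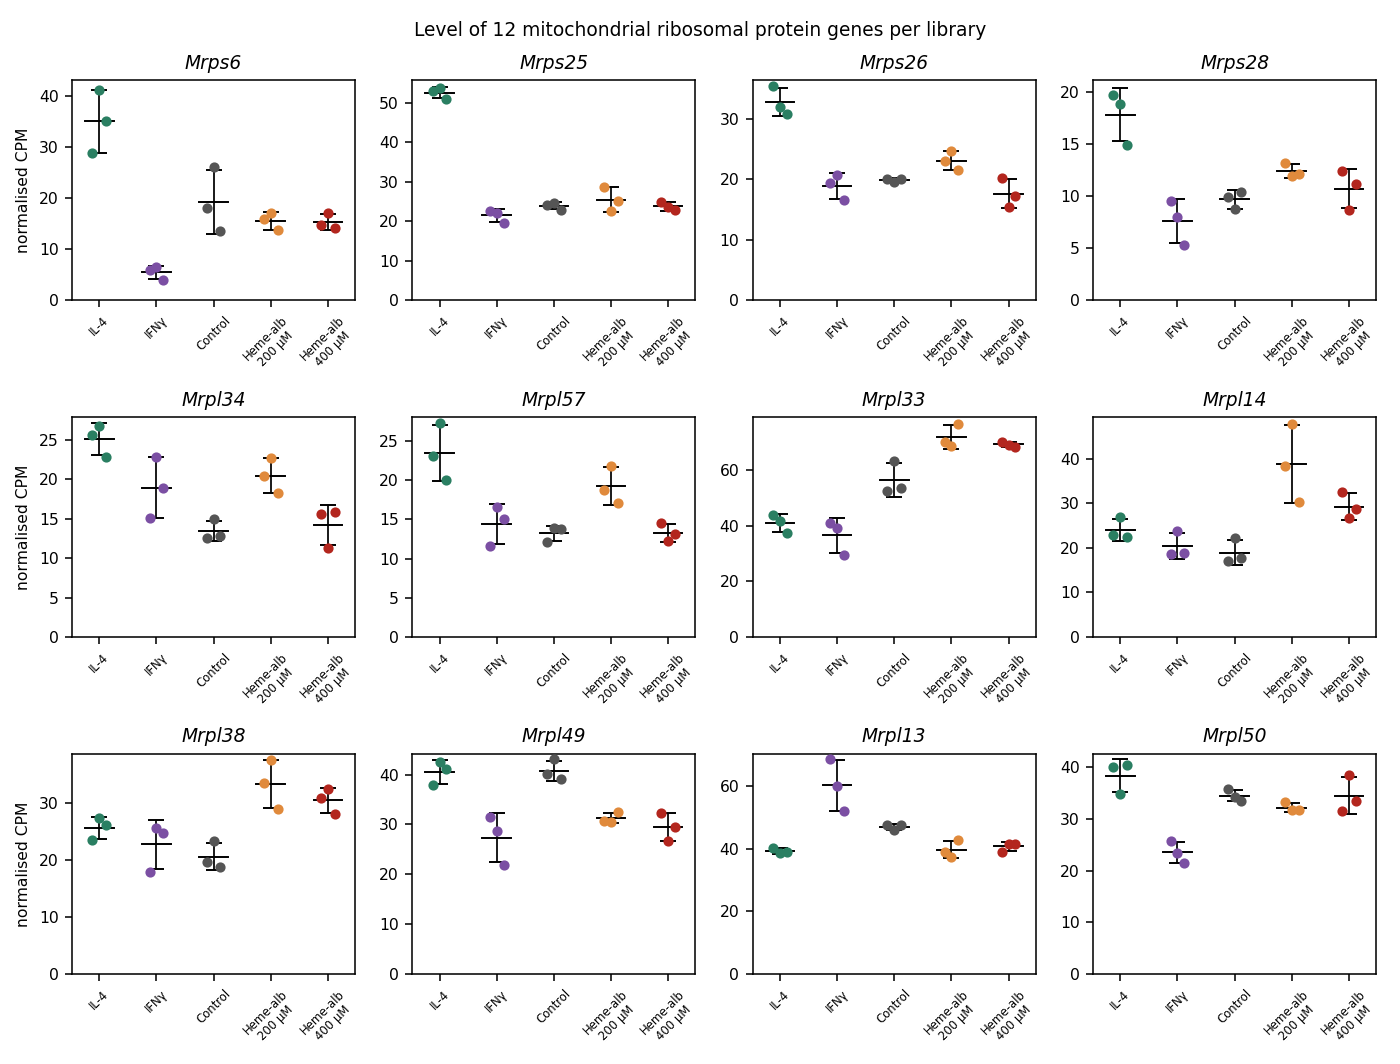
Normalised CPM of 12 members in each library (points, 3 per group), with the group mean (line) and SD (bars); each axis starts at 0. Mrps25 and Mrps26 are highest in the 3 IL-4 libraries, Mrps6 ranges from 3.99 to 6.40 in IFNγ, and Mrpl14 and Mrpl38 are highest in heme-albumin.

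IFNγ lowered 1 small-subunit gene strongly and moved 11 other members by less. Against control, 7 of 78 members (8.97%) were lower, beside 19.5% of all genes tested, and 5 (6.41%) higher, beside 24.1%. With upper-quartile scaling 14 were lower and 0 higher, and the shares of all genes called with that scaling are not given here. That scaling moved the median of all genes by -0.11 log2 units. The median log2 fold change was 0.03 over the members and 0.05 over all genes, and the sign of the members' median turned to -0.08 with upper-quartile scaling, where that of all genes was -0.06. The members that fell were Mrps6, Mrpl33, Mrpl49, Mrpl50, Mrpl41, Mrpl48 and Mrps14. Those that rose were Mrpl34, Mrpl2, Mrps16, Mrpl47 and Mrpl13.

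Mrps6, the counterpart of bacterial S6, had 5.98, 6.40 and 3.99 normalised CPM under IFNγ, against 18.1, 26.1 and 13.5 in controls. The 3 IFNγ libraries are the lowest of all 15, and the groups do not overlap. The log2 fold change was -1.81 ± 0.24 (adjusted p = 4.7e-05). Under IL-4 the same gene had 28.8, 41.3 and 35.1 normalised CPM, all above the controls (0.86 ± 0.22, adjusted p = 0.0107). That call was lost without control 1, control 3 or IL-4 library 2, with an adjusted p of up to 0.0526. Both heme-albumin groups overlapped the controls, with log2 fold changes of -0.31 ± 0.23 at 200 µM and -0.34 ± 0.23 at 400 µM. Mrps6 and Mrpl36 were the 2 members called in opposite directions by different treatments.

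Among large-subunit genes, Mrpl33 had 41.1, 39.4 and 29.4 normalised CPM under IFNγ, against 52.4, 63.5 and 53.5 in controls (log2 fold change -0.62 ± 0.12, adjusted p = 0.00123). Mrpl50, a protein specific to mitochondria, had 25.7, 23.3 and 21.5 under IFNγ, against 35.8, 34.3 and 33.5 in controls (-0.55 ± 0.10, adjusted p = 0.000713). Mrpl49, likewise specific to mitochondria, had 31.5, 28.6 and 22.0 under IFNγ, against 40.2, 43.1 and 39.1 in controls (-0.58 ± 0.12, adjusted p = 0.00199). The groups are apart in each of these 3 genes. Mrpl41 and Mrpl48, a further pair of mitochondria-specific proteins, fell by 0.42 and 0.35 on the log2 scale (adjusted p = 0.0152 and 0.00788), and Mrps14, the counterpart of bacterial S14, by 0.28 (adjusted p = 0.0282). Mrpl13, the counterpart of bacterial L13, rose to 68.7, 59.9 and 52.2 normalised CPM under IFNγ, against 47.5, 46.0 and 47.5 in controls (0.36 ± 0.10, adjusted p = 0.00869). It was lower than control, but not called, in the other 3 treatments. Mrpl34, Mrpl2, Mrps16 and Mrpl47 had log2 fold changes of 0.49, 0.40, 0.39 and 0.38 under IFNγ, and the Mrpl47 libraries overlapped those of the controls.

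The calls of Mrps6, Mrpl33, Mrpl49, Mrpl50 and Mrpl48 under IFNγ held in all 25 alternatives. All 5 rises were lost with upper-quartile scaling and with only the 6 libraries compared (Mrpl13 in these 2 alternatives alone). Mrpl34 also lost its call without control 1, control 3 or IFNγ 2, Mrpl2 without control 1, control 2 or IFNγ 2, and Mrps16 without control 2, control 3, IFNγ 2 or IFNγ 3. Mrpl47 lost it without any single control library, heme-albumin 200 µM library 1, heme-albumin 400 µM library 1 or 3, IL-4 library 2 or 3 or IFNγ library 1 or 2, and also with DESeq2, DESeq2 size factors or no filter, 15 of 25 alternatives in all. The Mrpl41 fall was lost without control 1, and the Mrps14 fall without control 1, control 2 or IFNγ 3, without both libraries that stand apart, with no filter, with only the 6 libraries compared, and with the GC trend removed and the replicate block together. The count of 5 rises was 3 without control 1, 2 without control 3, 1 without IFNγ library 2, 10 without IFNγ 1, 8 without IFNγ 3 and 9 without the heme-albumin 400 µM library 2. It was 12 without IFNγ 3 and that 400 µM library together, and 10 with each library's GC trend removed. The count of 7 falls was 12 without IFNγ 2. Cell cycle genes fell with IFNγ as well, 13 of 17 being lower with a median log2 fold change of -1.50. Their sum was 2149, 1181 and 416 normalised CPM in IFNγ libraries 1, 2 and 3, against 3118, 2923 and 2733 in controls. Medians were negative in the other treatments too, -0.43 under IL-4, -0.71 at 200 µM and -0.88 at 400 µM, with 0 of the 17 called. The summed level was below every control in each treated library. The part of these genes in the members' changes was not tested in any treatment.

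At 200 µM, heme-albumin raised 10 of 78 members (12.8%), beside 14% of all genes tested, and lowered 1 (1.28%), beside 9.48%. The members' median log2 fold change was 0.10, beside 0.02 over all genes, with 58 positive and 20 negative. Among the called members, the 8 largest rises were those of Mrpl14, Mrpl53, Mrpl38, Mrpl34, Mrpl57, Mrpl43, Mrpl2 and Mrpl4, all of the large subunit. Rises of like size were also seen in members that were not called, such as the small-subunit gene Mrps12 (log2 fold change 0.55). Mrps12 had 16.2, 18.9 and 17.6 normalised CPM at 200 µM, against 11.4, 13.3 and 11.1 in controls. Mrpl32 and Mrps10 also rose, and Mrpl49 fell. At 400 µM, 4 members (5.13%) were higher, beside 14.7% of all genes, and 4 (5.13%) lower, beside 10.8%. Their median was -0.0036, beside 0.0085 over all genes. Those higher at 400 µM were Mrpl14, Mrpl38, Mrpl1 and Mrps10, and those lower were Mrpl18, Mrpl49, Mrpl36 and Mrpl9.

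Mrpl14, the counterpart of bacterial L14 at the interface of the subunits, had 38.5, 47.8 and 30.4 normalised CPM at 200 µM, against 17.0, 22.1 and 17.7 in controls. At 400 µM it had 32.5, 26.7 and 28.7, so that all 6 heme-albumin libraries are above all 3 controls. The log2 fold change was 1.04 ± 0.17 at 200 µM (adjusted p = 0.000698) and 0.63 ± 0.17 at 400 µM (adjusted p = 0.0158). Mrpl38, specific to mitochondria, had 33.5, 37.5 and 29.0 normalised CPM at 200 µM and 30.9, 32.5 and 28.1 at 400 µM, against 19.6, 23.4 and 18.8 in controls. Here too the heme-albumin libraries lie above the controls (0.69 ± 0.15, adjusted p = 0.00422 at 200 µM, and 0.56 ± 0.15, adjusted p = 0.0137 at 400 µM). Mrpl49 went the other way, with 30.8, 30.6 and 32.5 at 200 µM and 32.3, 26.6 and 29.5 at 400 µM, against 40.2, 43.1 and 39.1 normalised CPM in controls. Its log2 fold change was -0.38 ± 0.12 at 200 µM (adjusted p = 0.0352) and -0.47 ± 0.12 at 400 µM (adjusted p = 0.0126). Mrps10, the counterpart of bacterial S10, was the other gene called at both doses, with 0.35 ± 0.10 at 200 µM and 0.31 ± 0.10 at 400 µM.

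Rises called at 200 µM alone included Mrpl53, specific to mitochondria, with 17.5, 22.0 and 19.0 normalised CPM at 200 µM, against 11.6, 13.0 and 10.9 in controls (log2 fold change 0.72 ± 0.18, adjusted p = 0.00974). At 400 µM the same gene had 13.0, 11.6 and 13.7, overlapping the controls. Mrpl34 and Mrpl57 had 0.60 ± 0.17 and 0.54 ± 0.16 at 200 µM, and 0.08 ± 0.17 and 0.01 ± 0.16 at 400 µM. Mrpl43, Mrpl2 and Mrpl4 had 0.49, 0.49 and 0.48 at 200 µM. At 400 µM alone, Mrpl18, the counterpart of the bacterial L18 protein that binds 5S rRNA, had 40.5, 27.1 and 38.5 normalised CPM, against 49.1, 50.3 and 48.4 in controls (-0.47 ± 0.15, adjusted p = 0.0364). Mrpl1, the counterpart of the bacterial L1 stalk protein, had 18.3, 28.0 and 20.1 at 400 µM, against 17.6, 16.3 and 14.3 in controls (0.46 ± 0.15, adjusted p = 0.0369). Mrpl36 had 16.2, 17.1 and 20.0 at 400 µM, against 24.2, 20.1 and 22.1 in controls (-0.31 ± 0.11, adjusted p = 0.0446), and Mrpl9 a log2 fold change of -0.27 ± 0.09 (adjusted p = 0.0478). Each of these 4 genes lies just apart from the controls at 400 µM.

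The Mrpl14 call at 200 µM held in all 25 alternatives, and the Mrpl38 call in all but the removal of the GC trend (adjusted p = 0.0655). Other calls at 200 µM were lost without 1 library: Mrpl53 without 200 µM library 2, Mrpl34 without control 1, control 3 or 200 µM 2, Mrpl2 without control 1 or 200 µM 2, and Mrpl57 and Mrpl43 without control 1, control 3, 200 µM 1 or 200 µM 2 (Mrpl57 also without control 2). Mrpl4 was lost without the same 4 libraries as Mrpl43 and with the GC trend removed, with or without the replicate block, and Mrpl49 without any single control or 200 µM library and with no filter on low counts. The count of 10 rises was 4 without control 1 or control 3, 6 without 200 µM library 1 and 2 without 200 µM library 2. The count of 1 fall was 2 without IFNγ library 1 or 3. The count of rises was 17 with only the 6 libraries compared and 18 without both the IFNγ library 3 and the 400 µM library 2. The fold changes at 200 µM went with GC content across members and across genes (Spearman correlation 0.29 and 0.28), and with the GC trend removed the members' median was 0.08 instead of 0.10.

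At 400 µM, the Mrpl49 call was lost without 400 µM library 2 alone (adjusted p = 0.0513), the Mrpl38 call without control 1 or 3, and the Mrpl14 call without control 1, control 3 or 400 µM library 1. Mrpl18 was lost without any single control or 400 µM library 2, and Mrpl1 without any single control, 200 µM 3, 400 µM 2 or IL-4 3, without both libraries that stand apart, with no filter and with only the 6 libraries compared. The calls of Mrps10, Mrpl36 and Mrpl9 were held in 9, 10 and 8 of 25 alternatives. Mrpl9 was lost without any single control, heme-albumin or IL-4 library, Mrps10 without any of these but IL-4 library 2, and Mrpl36 without control 1 or 3, any 200 µM or IL-4 library, 400 µM 1 or 2 or IFNγ 2. With no filter and with only the 6 libraries compared, all 3 were lost. Mrpl36 and Mrpl9 were also lost with upper-quartile factors and without both libraries that stand apart, Mrpl9 with at least 5 CPM in 3 libraries, and Mrps10 with DESeq2, its size factors or the replicate block. The count of 4 rises was 0 without control 1 or control 3, and 2 without control 2, 200 µM library 3, 400 µM library 1, 400 µM library 2 or IL-4 library 3. The count of 4 falls was 0 without 400 µM library 2, 1 without control 1 or control 3, and 2 without control 2, 400 µM library 1 or any single 200 µM or IL-4 library.

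Between the doses, no member was called. In heme-albumin 400 against 200 µM, 0 of 78 members and 0% of all genes passed edgeR's quasi-likelihood test. By that test, 16 members, all lower at 400 µM, and 1796 genes, counted in either direction, had an unadjusted p under 0.05. DESeq2 called 1 member, lower, and its share of all genes called is not given here. The median log2 fold change was -0.09 over the members and 0.0046 over all genes, with 56 members negative and 22 positive. The most negative was Mrps12 at -0.99 ± 0.22 (adjusted p = 0.292), with 10.6, 5.51 and 10.2 normalised CPM at 400 µM, against 16.2, 18.9 and 17.6 at 200 µM. Mrpl28, the counterpart of bacterial L28, followed at -0.67 ± 0.18 (adjusted p = 0.292), with 40.5, 24.5 and 36.1 at 400 µM, against 58.7, 51.5 and 51.1 at 200 µM. In both genes the 400 µM library 2 is the lowest, and the groups do not overlap. The 95% interval of the fold change lay within 1.5-fold for 61 of the 78 members. The fold changes between doses were negatively correlated with GC content among the members and among all genes (Spearman correlation -0.56 each). With transcript length the correlation was positive (0.41 and 0.28). The median transcript length is 1302 bases for the members and 2971 for all genes tested. With each library's GC trend removed, the members' median stayed at -0.09 and 0 members were called. The members' median GC content, 50.4%, lies near the 50.2% of all genes tested, so an unchanged median says little on GC in single genes. The part of length in these differences was not tested.

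The widest spread lay between the 2 cytokines. In IL-4 against IFNγ, 17 of 78 members (21.8%) were higher, beside 24.3% of all genes, and 8 (10.3%) lower, beside 26.3%. With upper-quartile scaling these counts were 28 and 3, and the shares of all genes called with it are not given here. That scaling moved the median of all genes by 0.09 log2 units. The members' median log2 fold change was 0.14 and that of all genes -0.0061. Mrps6 had 28.8, 41.3 and 35.1 normalised CPM under IL-4, against 5.98, 6.40 and 3.99 under IFNγ, the largest difference of any member (log2 fold change 2.67 ± 0.24, adjusted p = 7.85e-07). Mrps25 had 53.0, 53.8 and 51.1 under IL-4, against 22.6, 22.1 and 19.6 under IFNγ (1.29 ± 0.10, adjusted p = 1.7e-07). Mrps28 had 19.7, 18.9 and 14.9 under IL-4, against 9.49, 7.96 and 5.30 under IFNγ (1.23 ± 0.19, adjusted p = 0.000151). In each of the 3 genes the lowest IL-4 library is well above the highest IFNγ library. Mrps36, Mrps26, Mrpl41, Mrpl50 and Mrpl57 followed, with log2 fold changes of 0.94, 0.79, 0.75, 0.71 and 0.70.

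Lower under IL-4 than under IFNγ were Mrpl13, Mrpl39, Mrpl1, Mrpl35, Mrpl47, Mrpl24, Mrps18c and Mrpl45. Mrpl13 had 40.3, 38.6 and 38.9 normalised CPM under IL-4, against 68.7, 59.9 and 52.2 under IFNγ (log2 fold change -0.62 ± 0.10, adjusted p = 0.000123). Mrpl39, a protein specific to mitochondria, had 26.2, 29.7 and 28.0 under IL-4, against 46.9, 42.1 and 35.2 under IFNγ (-0.57 ± 0.12, adjusted p = 0.0019). Mrpl1 had 14.9, 13.3 and 14.4 under IL-4, against 21.7, 18.9 and 21.3 under IFNγ (-0.54 ± 0.14, adjusted p = 0.0074). The groups do not overlap in these 3 genes, and their calls and those of the 8 higher genes named above held in all 25 alternatives. The other 5 ranged from -0.42 (Mrpl35) to -0.26 (Mrpl45) and were lost with upper-quartile scaling. Mrpl35 was also lost without IL-4 2, IFNγ 1 or IFNγ 2, Mrpl47 without these or IL-4 3, and Mrpl24 without any single IL-4 library, IFNγ 2 or IFNγ 3. Mrpl45 was lost without any single 200 µM or IL-4 library, 400 µM library 3 or IFNγ 1 or 2. With only the 6 libraries compared, these 4 were lost as well, and with no filter Mrpl24 and Mrpl45. Mrpl24 was also lost without both libraries that stand apart. The count of 8 was 4 without IL-4 library 2 or IFNγ library 2, 5 without IL-4 library 3, and 4 with only the 6 libraries compared.

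Across treatments, 3 members were called in 3 of 4 comparisons with the shared controls. Mrpl2, the counterpart of bacterial L2, had log2 fold changes of 0.47 under IL-4, 0.40 under IFNγ and 0.49 at 200 µM, and 0.17 (not called) at 400 µM heme-albumin. Mrpl34 had 0.90, 0.49, 0.60 and 0.08 (not called) in the same order. Mrpl49 was lower in IFNγ and both doses of heme-albumin, and had -0.0094 (not called) under IL-4. Mrpl36, the counterpart of bacterial L36, was called in opposite directions, higher under IL-4 with 29.7, 31.6 and 29.3 normalised CPM (0.45 ± 0.10, adjusted p = 0.00508) and lower at 400 µM, as given above, against 24.2, 20.1 and 22.1 in controls. Mrpl33 was lower under both cytokines, while at 200 and 400 µM its 6 libraries (68.5 to 76.8 normalised CPM) were above the controls without passing the test (adjusted p = 0.0535 and 0.0927).

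The 3 paralogs of bacterial S18 differed little between groups. Mrps18c, which takes the place of S18 in the small subunit, ranged from 28.2 to 38.6 normalised CPM over the 15 libraries, and was called in IL-4 against IFNγ alone (-0.32 ± 0.09, adjusted p = 0.00812, lost with upper-quartile scaling at 0.0527). Mrps18a, a large-subunit protein, ranged from 32.3 to 42.6, and Mrps18b, a mitochondria-specific small-subunit protein, from 15.3 to 23.5. Neither was called in any of the 6 comparisons, and their log2 fold changes against control lay between -0.23 and 0.12.

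Compared per transcript length, the members spanned a 30.4-fold range of mean level. TPM, a share of all transcripts corrected for length, was computed from the counts and the length of 1 principal transcript per gene. The highest means over 15 libraries were those of Mrpl33 at 241 ± 60.2 TPM (SD, n = 15), Mrpl42 at 165 ± 25.5, Mrpl20 at 149 ± 23.4, Mrps21 at 136 ± 18.7 and Mrps18c at 112 ± 11.9 TPM. The lowest were those of Mrps35 at 7.92 ± 1.20 TPM, Mrpl17 at 10.2 ± 1.903, Mrpl47 at 10.2 ± 1.95, Mrps25 at 10.3 ± 4.50 and Mrpl1 at 10.8 ± 1.85. The order rests on the length used: with the length of all exons joined, 5 of the 10 highest stayed among the 10 highest and Mrpl33 fell to rank 50. Medians by role were 49.6 TPM for large-subunit proteins with a bacterial counterpart and 39.5 for those specific to mitochondria, 36.5 for small-subunit proteins with a bacterial counterpart and 22.4 for those specific to mitochondria, with wide overlap. The order of the 78 genes was much the same in every group, with rank correlations between group means from 0.91 to 0.98. Mrpl33 was the highest in 4 groups, and in IFNγ, at 163 ± 41.3 TPM, it ranked second.

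**Figure D4:**
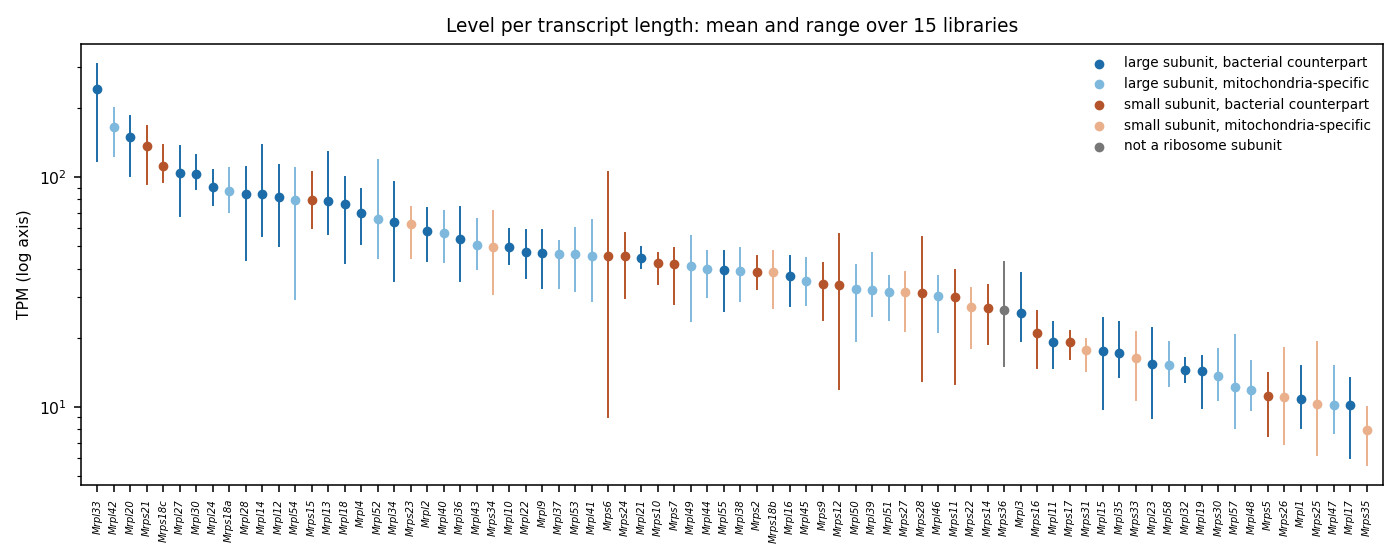
Mean TPM (points, log axis) of the 78 genes over 15 libraries, with the lowest and highest library as a line and colour by subunit and bacterial counterpart, in falling order. Mrpl33 leads at 241 TPM and Mrps35 is lowest at 7.92 TPM; Mrps6 has one of the longest lines.

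Some members lie next to or across another gene, which may matter for what their counts hold. Exon bases of 33 of the 78 members are also annotated to another gene, on the same strand for 8 of them. The same share over all genes tested is not given here, so this count cannot be called high or low. How the deposited counting treated strand and shared bases is not given in the sources used here, though the library kit keeps strand. Of the 33 overlapping members, 8 rose and 1 fell under IL-4, and of the 45 without overlap 9 rose and 0 fell. Under IFNγ, 2 rose and 4 fell with overlap, and 3 rose and 3 fell without. At 200 µM, 3 rose and 1 fell with overlap, and 7 rose and 0 fell without. At 400 µM, 1 rose and 4 fell with overlap, and 3 rose and 0 fell without. The falls called against control under IL-4 and heme-albumin were thus in members with shared exon bases, while 3 of those under IFNγ were not. The genes that overlap Mrpl18, Mrpl36 and Mrpl49 (Tcp1, Ndufs6 and Syvn1) share 141, 30 and 91 bases with them. At 400 µM, these 3 genes had log2 fold changes of 0.05, 0.03 and 0.14 and were not called. Syvn1 was higher at 200 µM (0.53). The genes that overlap Mrpl33 and Mrpl9 were not among those tested. The part of shared bases in these falls was not tested. A protein-coding neighbour that starts within 1000 bases on the other strand, without overlap, was found for 18 members (23.1%), beside 10.8% of the protein-coding genes tested.

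Mrps6 shares 159 exon bases on the same strand with Slc5a3, which encodes a sodium-coupled inositol transporter, and the annotated starts of both lie in the window printed above. Slc5a3 had 22.0, 30.1 and 24.4 normalised CPM under IL-4, 2.40, 1.73 and 1.65 under IFNγ, and 8.06, 13.9 and 5.91 in controls. Its log2 fold change was 1.44 under IL-4 and -2.28 under IFNγ, the same directions as Mrps6. At 200 µM heme-albumin Slc5a3 was lower (-1.10, adjusted p = 0.0174), where Mrps6 was not called. Mrpl14 shares 106 exon bases on the opposite strand with Tmem63b, an ion channel gene. Tmem63b had 48.0, 67.7 and 48.2 normalised CPM at 200 µM and 42.5, 41.8 and 43.9 at 400 µM, against 22.9, 29.3 and 26.2 in controls. Like Mrpl14, it has every heme-albumin library above every control, with log2 fold changes of 1.06 and 0.71. The part of shared bases in these parallel changes was not tested. Mrps25 shares 4590 exon bases on the opposite strand with Nr2c2, a nuclear receptor gene, which had 33.1, 36.3 and 35.9 normalised CPM under IL-4, against 44.3, 43.8 and 43.7 in controls. Nr2c2 was thus not higher where Mrps25 was. Mrpl32 starts 75 bases from Psma2, a proteasome subunit gene, and both rose at 200 µM. Mrpl32 had 21.2, 23.3 and 25.4 normalised CPM at 200 µM, against 19.3, 18.1 and 17.1 in controls (0.36 ± 0.10, adjusted p = 0.0166), and Psma2 a log2 fold change of 0.38 (adjusted p = 0.011).

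**Figure D5:**
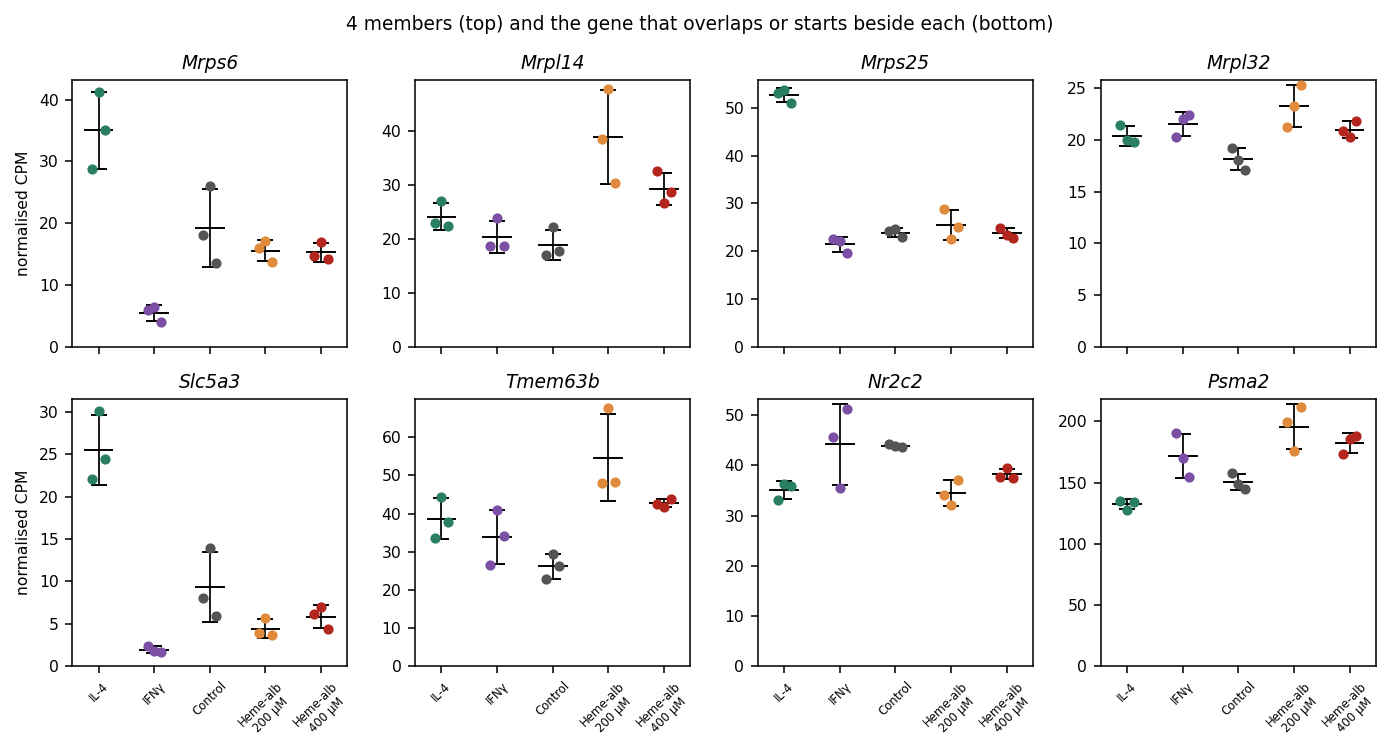
Normalised CPM per library (points), mean (line) and SD (bars, n = 3) of 4 members (top row) and of the gene that overlaps or starts beside each (bottom row); axes start at 0. Slc5a3 is high in IL-4 and low in IFNγ as Mrps6 is, Tmem63b is high in heme-albumin as Mrpl14 is, and Nr2c2 is lower in IL-4, where Mrps25 is higher.

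Other genes of mitochondrial gene expression were counted from lists chosen by function. The shares of all genes tested to read these counts against were 14.9% higher and 12% lower under IL-4, 24.1% and 19.5% under IFNγ, 14% and 9.48% at 200 µM, and 14.7% and 10.8% at 400 µM. Of 5 mitochondrial ribosomal proteins under other symbols, Gadd45gip1 and Aurkaip1 rose under IL-4 (log2 fold change 0.71 and 0.24), Aurkaip1 rose at 200 and 400 µM heme-albumin (0.40 and 0.24), and Ptcd3 fell under IFNγ (-0.33). Of 26 assembly factors, 1 rose under IL-4 (Mpv17l2, 0.42), 2 rose and 4 fell under IFNγ and 2 fell at 400 µM. At 200 µM, edgeR's quasi-likelihood test called 0 of them, and 1 had an unadjusted p under 0.05. The falls included Noa1 under IFNγ (-0.62) and Eral1, which binds the small-subunit rRNA, under IFNγ (-0.44) and at 400 µM (-0.54). Of 17 translation factors, 3 rose and 0 fell under IL-4, 2 rose and 1 fell under IFNγ, and 1 rose and 1 fell at each heme-albumin dose. Under IL-4 these were the peptide deformylase Pdf (0.47) and the elongation factors Tsfm (0.60) and Tufm (0.39). Slirp, which stabilises mitochondrial mRNAs with Lrpprc, rose at 200 µM (0.74), at 400 µM (0.73) and under IFNγ (0.59). Guf1, a GTPase of the elongation factor family, fell in the same 3 treatments (-0.44, -0.35 and -0.44). Of 20 mitochondrial tRNA synthetase genes, 2 rose and 0 fell under IL-4, 1 rose and 3 fell under IFNγ, 1 rose and 1 fell at 200 µM, and 3 rose and 1 fell at 400 µM. Mars2 fell under IFNγ (-0.86) and Cars2 under IFNγ (-0.35) and at 400 µM (-0.49). Fars2 rose under IFNγ (0.36) and at 200 and 400 µM (1.16 and 1.10). At these doses it stood at 31.2 ± 1.62 and 30.1 ± 0.930 normalised CPM, against 14.0 ± 0.162 in controls (SD, n = 3 each).

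The proteins that the mitochondrial ribosome makes, and the nuclear subunits they join, gave the following counts. Of 82 nuclear oxidative phosphorylation subunits, 29 rose and 1 fell under IL-4, 18 rose and 2 fell under IFNγ, 18 rose and 1 fell at 200 µM and 5 rose and 2 fell at 400 µM. The complex III genes Uqcrq, Cyc1 and Uqcrc1 had log2 fold changes of 1.07, 0.44 and 0.59 under IL-4. Their medians over the list were 0.20 under IL-4, 0.11 under IFNγ, 0.17 at 200 µM and 0.05 at 400 µM, beside 0.11, 0.03, 0.10 and -0.0036 for the mitochondrial ribosomal proteins. Of 13 mRNAs of the mitochondrial genome, all in the count table, 7 passed the filter on low counts and were tested. Of these 7, 3 were lower under IFNγ (mt-Nd1 -0.95, mt-Nd2 -0.72, mt-Cytb -1.04). The sum over the 13 was 6234, 3497 and 5689 normalised CPM in IFNγ libraries 1, 2 and 3. These sums overlap those of the controls, 6786, 5846 and 4737. In the other 3 treatments edgeR's quasi-likelihood test called 0 of the 7, with 1 at an unadjusted p under 0.05 under IL-4 and 0 at either dose. Of 83 cytosolic ribosomal proteins, 21 rose and 0 fell under IL-4, 20 rose and 2 fell under IFNγ, 17 rose and 0 fell at 200 µM and 4 rose and 0 fell at 400 µM. Of 23 mitochondrial protein import genes, 7 rose and 0 fell under IL-4, 0 rose and 6 fell under IFNγ, 5 rose and 0 fell at 200 µM, and 3 rose and 2 fell at 400 µM, and 13 were higher and 0 lower in IL-4 against IFNγ. Among 9 nuclear regulators tested, 2 rose and 0 fell under IL-4, 2 rose and 2 fell under IFNγ, 1 fell at 200 µM and 2 fell at 400 µM. Ppargc1b, a coactivator of mitochondrial biogenesis, rose under IL-4 (1.97) and under IFNγ (2.52). Gabpb1 and Gabpa fell under IFNγ (-0.39 and -0.32). Nrf1 fell at 400 µM (-0.46, adjusted p = 0.00813) and Gabpb2 at 200 and 400 µM (-0.76 and -0.53). These lists are described by counts, and whether any differs from the members was not tested.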

How the data were processed

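Bulk RNA of 15 libraries in 5 groups was sequenced from TruSeq stranded libraries, per the labels' protocols. The authors deposited raw counts per gene; per the submitters' processing notes, STAR 2.7.0e, SAMtools 1.9 and featureCounts were used with GRCm38.p5, and the strand setting is not given in the sources used here. Groups were taken from the labels, and 0 columns belonged to other samples. Of 25700 genes, 113 had no symbol.

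Genes were filtered with filterByExpr, scaled by TMM and fitted over all 15 libraries with edgeR 4.0.16 (R 4.3.3) as group means. The quasi-likelihood test gave 6 comparisons and 1 F test, with Benjamini-Hochberg adjustment over 11883 genes and a threshold of 0.05. The standard error is the absolute log2 fold change divided by the square root of F. The text names, per comparison, up to 8 called members with the largest rise and up to 8 with the largest fall, the 10 with the smallest p in the F test, the 5 highest and 5 lowest in level, the Mrps18 paralogs, Mrpl12, up to 3 genes per related list and the treatment checks. Other genes named were chosen after their values were seen. Members and lists were chosen with earlier results of these data known. Single-library precision is limited by counting error at the depths given. The script was tested on simulated data.

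Column names carry 3 dates, 1 per replicate number, so same-numbered libraries share a date. The main fit does not use the replicate number, so its p-values ignore this pairing, and the replicate block is an alternative. Deviations from the group mean of same-numbered libraries had a median correlation of 0.144 (30 pairs, -0.168 to 0.474, 19 over 0.1), against -0.0688 for other pairs. By mean correlation, 14 of 15 libraries were closest to the libraries of other groups with their own number. Alternatives were DESeq2 1.42.0, its size factors, upper-quartile factors, no filter, at least 5 CPM in 3 libraries, the replicate block, only the libraries compared, removal of each library's GC trend with and without the block, and leaving out libraries. Figures used matplotlib 3.10.9.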

Additional observations from a re-analysis of the deposited data

How the results depend on the processing

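Of 54 named fold changes, 22 kept their call under all 25 alternatives, 32 lost it under at least 1, and 0 changed sign. The GC alternatives were chosen after seeing the data, and the causes of the differences below were not tested.

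Counts of called members are given as higher and lower. The shares of all genes called under each alternative are not given, so a changed count cannot be read as particular to the members. With only the 6 libraries compared, they were 2 and 2 at 400 µM against control (4 and 4 in the fit of 15 libraries), 17 and 2 at 200 µM (10 and 1), 26 and 4 under IL-4 (17 and 1), 0 higher under IFNγ (5) and 4 lower in IL-4 against IFNγ (8). Without both libraries that stand apart, they were 2 lower at 400 µM, 18 and 3 at 200 µM, 26 and 3 under IL-4, and 12 higher under IFNγ. Upper-quartile factors gave 2 lower at 400 µM, 0 and 14 under IFNγ, and 28 and 3 in IL-4 against IFNγ. No filter gave 2 and 2 at 400 µM and 0 lower at 200 µM. DESeq2 gave 2 lower under IL-4 and 1 lower at 400 against 200 µM, and its size factors 2 lower under IL-4. The GC trend removed gave 3 lower under IL-4 and 10 higher under IFNγ, and with the replicate block 2 lower at 200 µM, 3 lower under IL-4 and 12 higher under IFNγ. The summed level as CPM of the total was 2263 at 200 µM and 2393 in controls, against 2368 and 2169 with TMM.

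With the replicate block, the counts were 3 and 4 at 400 µM, 11 and 1 at 200 µM, 18 and 1 under IL-4, 7 and 7 under IFNγ, 17 and 9 in IL-4 against IFNγ and 39 in the F test, and among the named members the block ended the call of Mrps10 at 400 µM and no other.

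Leaving out 1 library at a time, counts ranged from 0 to 5 higher and 0 to 4 lower at 400 µM, 2 to 14 and 0 to 2 at 200 µM, 8 to 22 and 0 to 2 under IL-4, 1 to 10 and 5 to 12 under IFNγ, 0 to 0 between the doses, 16 to 21 and 4 to 9 in IL-4 against IFNγ, and 32 to 42 in the F test.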

Other observations

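Single libraries set apart a few members that no comparison called, chosen after their values were seen. Mrpl52, a large-subunit protein specific to mitochondria, had 10.9, 12.9 and 25.9 normalised CPM in IFNγ libraries 1, 2 and 3. Mrpl54, also of the large subunit, had 22.8, 9.35 and 22.4 in the 400 µM heme-albumin libraries, against 21.4, 20.5 and 17.9 in controls. Mrps11, the counterpart of bacterial S11, had 14.7, 6.95 and 13.7 in the same 400 µM libraries. The outlying values belong to the 2 libraries with the lowest members' share of all counts.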
